A study of Homo sapiens with 12 samples.

Results

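The genes examined here encode the DNA replication machinery, 53 genes chosen by function and grouped into 13 complexes or steps, out of 63677 genes counted in each library. They were found in the count files by Ensembl gene identifier, and all 53 were matched and had enough counts to be tested. RNA was sequenced from 3 cell lines of basal-like, triple-negative breast cancer (HCC38, MDA-MB-468, SUM149PT), grown and transfected in culture, and each of the 6 groups has 2 libraries. The knock-down groups (KD) received LNA1 and LNA2 together, locked nucleic acid oligonucleotides against the long non-coding RNA (lncRNA) LINC01956 (ENSG00000258910), and the control groups (NS) received a non-targeting LNA, each at 50 nM, with the medium changed at 6 h and cells collected at 24 h. The comparison asks what happened to each replication complex when this lncRNA was lowered, line by line, and how much of each complex the lines carried without knock-down. Nothing in the labels tells whether the duplicate libraries are from different cultures, and the p-values therefore reflect only how far these libraries spread, which may be technical. Because LNA1 and LNA2 were given only together, their effects cannot be told apart. Values for the lines follow the order MDA-MB-468, SUM149PT, HCC38 where no line is named.

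DNA replication starts at origins, where the origin recognition complex, CDC6 and CDT1 load the MCM helicase as an inactive double ring during G1. In S phase the CDC7 kinase and further factors bring CDC45 and GINS to the ring, which then unwinds DNA, while DNA polymerase alpha-primase lays down short primers that polymerase epsilon (leading strand) and polymerase delta (lagging strand) extend. Many of these genes are classical targets of the E2F transcription factors, whose release from RB drives entry into S phase, a control that is commonly disturbed in basal-like breast cancer.

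The sharpest falls in the replication machinery were in the genes that start and extend new strands. All 4 subunits of DNA polymerase alpha-primase fell in every line, and POLE, the catalytic subunit of polymerase epsilon, fell with them. On average over the 3 lines, 31 of the 53 genes fell and 7 rose at an adjusted p under 0.1 (edgeR), leaving 15 that missed it, where 26.5% of all 21325 genes tested fell and 28.4% rose. The median log2 fold change of the 53 genes was −0.22, beside 0.04 over all genes tested. Loading and activating factors were mixed: ORC6, CDC6, MCM2, TOPBP1 and GINS3 rose on average while MCM3, CDC45 and the other GINS genes fell. RNA was measured over whole cultures, so fewer cells in S phase and less RNA per cell cannot be told apart.

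Counts assigned to genes ran from 32187835 to 56191152 per library, and each library resembled its own replicate more than any other library (r of 0.989 to 0.992 across genes). Levels are given as CPM, a gene's share of all gene counts scaled to a fixed total, after TMM scaling, and as CPM per kb of the main transcript where genes are compared with each other. The targeted lncRNA lay at 0.796 and 0.611 CPM in the NS and 0.0230 and 0.0235 CPM in the KD libraries of MDA-MB-468, at 10.7 and 11.2 against 0.576 and 0.416 CPM in SUM149PT and at 14.6 and 15.1 against 1.48 and 2.05 CPM in HCC38. Keratins 8, 18 and 19, EPCAM and CDH1 were above 100 CPM in all 12 libraries, and PTPRC, CD3E, HBB and LUM were at or near 0. The marker lists of other cells were not empty as sums: 5 fibroblast genes summed to 16.7 to 21.2 CPM in MDA-MB-468, 63.8 to 74.1 CPM in SUM149PT and 102.3 to 130.3 CPM in HCC38, most of it COL1A1. The immune list summed to 4.34 to 13.9 CPM, nearly all CD14, and the erythroid list to 3.05 to 4.24 CPM in SUM149PT, nearly all HBA1, and to 0.269 CPM or less in the other lines. The 4 mesenchymal genes summed to 52.5 to 71.7 CPM in MDA-MB-468, 1654 to 2692 CPM in SUM149PT and 1064 to 1451 CPM in HCC38. The endothelial list summed to 1.78 and 2.39 CPM in NS and 7.18 and 6.57 CPM in KD of MDA-MB-468. In the other lines it summed to 2.56 CPM or less. ESR1, PGR and ERBB2 together summed to 160.3 to 192.9 CPM in HCC38 and 77.4 CPM or less in the other lines. The 7 basal markers summed to 599 to 772 CPM in HCC38 and 3901 CPM or more in the other lines. In HCC38 CDH3 (414 CPM or more), EGFR (128 CPM or more) and KRT5 (46.3 CPM or more) were clearly present, while KRT14 and KRT17 were at 1.64 CPM or less, KRT6A at 2.69 CPM or less and TP63 at 2.14 CPM or less.

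Line by line, 25 of the 53 genes fell and 13 rose in MDA-MB-468, where 25.7% and 24.9% of all genes did. In SUM149PT 22 fell and 9 rose, against 18.0% and 20.0% of all genes. In HCC38 35 fell and 2 rose, against 18.4% and 15.5%. Medians of the log2 fold change were −0.17, −0.17 and −0.38 in the 3 lines, beside medians of 0.00, 0.03 and 0.01 over all genes. Leaving out 1 library moved the SUM149PT median to −0.06 without KD replicate 2 and to −0.12 without NS replicate 1, and that of MDA-MB-468 to −0.11 without KD replicate 1. Some of these counts rest on few libraries. The 13 rises in MDA-MB-468 became 8 without NS replicate 2, the 9 in SUM149PT became 2 without KD replicate 1 or without NS replicate 2, and the 2 in HCC38 became 1 without KD replicate 1, NS replicate 2 or KD replicate 2. HCC38 had the most genes down. Over all 53 genes the lowest log2 fold change was in HCC38 for 28, in MDA-MB-468 for 18 and in SUM149PT for 7. Among only the 31 genes that fell on average, it was in MDA-MB-468 for 17, in HCC38 for 11 and in SUM149PT for 3. That narrower set leaves out 8 genes that fell in HCC38 and did not pass on average.

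**Figure D1:**
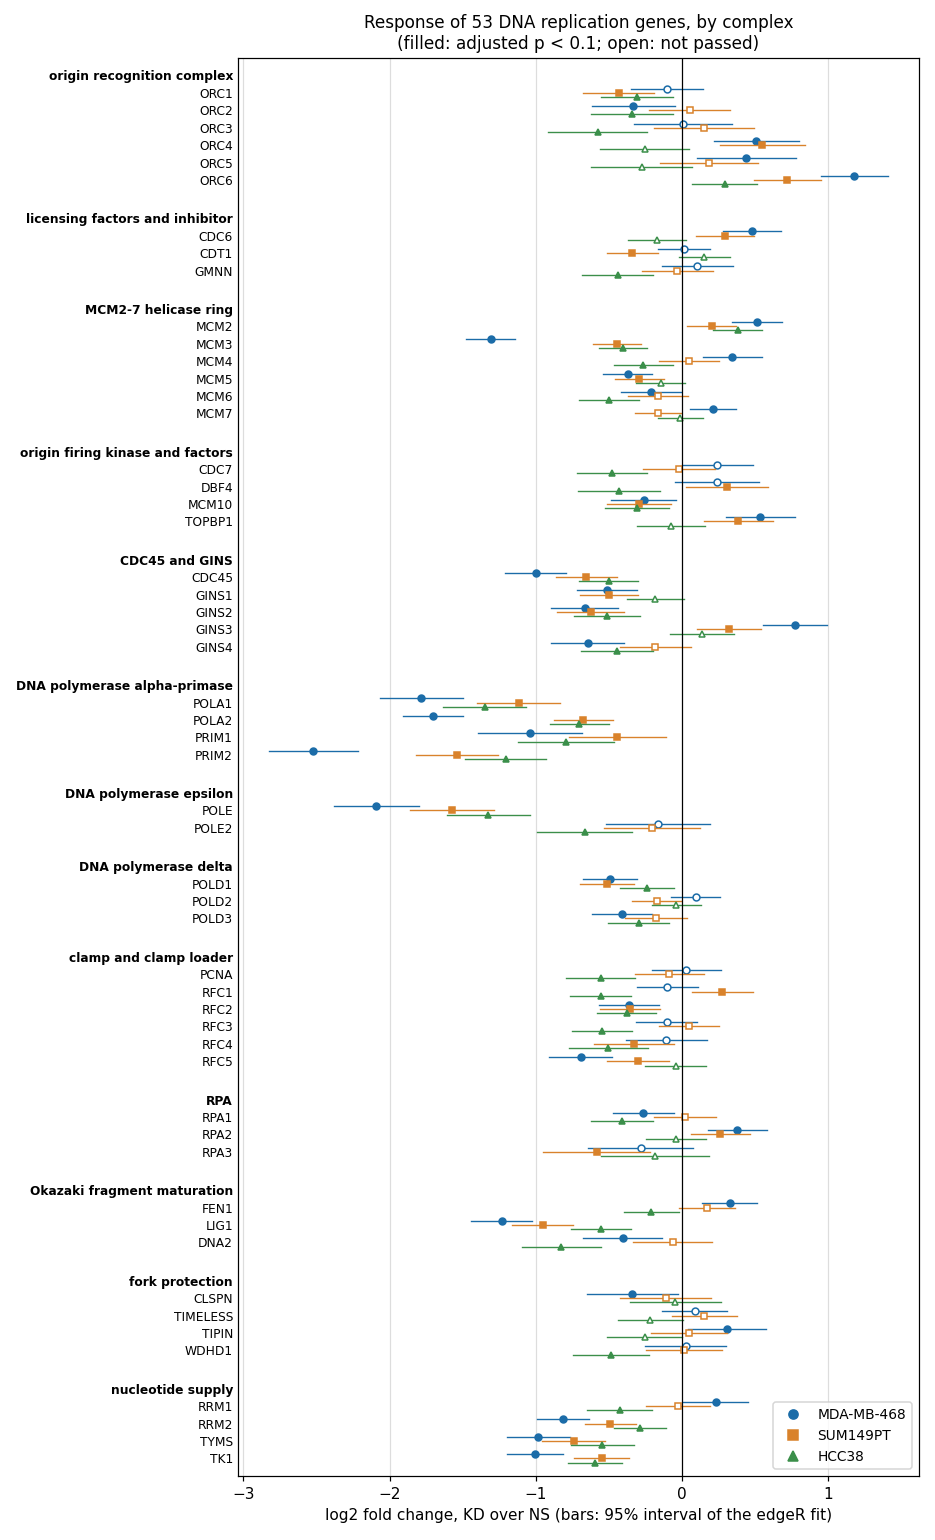
Log2 fold change of KD over NS for each of the 53 genes (rows, grouped by complex) in MDA-MB-468 (circles), SUM149PT (squares) and HCC38 (triangles), with 95% intervals of the edgeR fit as bars and filled symbols where the adjusted p was under 0.1. POLA1, POLA2, PRIM1, PRIM2 and POLE lie left of 0 in all 3 lines, ORC6 and MCM2 right of 0 in all 3, and the clamp loader genes RFC1 and RFC3 are lower in HCC38 than in the other two lines.

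In all 3 lines 15 genes fell, against 8.74% of all genes, and 2 rose, against 6.60%. The 15 were MCM3, MCM10, CDC45, GINS2, POLA1, POLA2, PRIM1, PRIM2, POLE, POLD1, RFC2, LIG1, RRM2, TYMS and TK1, and 12 of them had their deepest fall in MDA-MB-468. Of the 15, 10 fell in all 3 lines under every alternative processing, and the exceptions were MCM10, PRIM1, POLD1, RFC2 and RRM2. The 2 that rose in all 3 lines were ORC6 and MCM2. In 21 of the 53 genes both KD libraries lay below both NS libraries in every line. The share of all genes that did so was not counted, so this number has no background beside it. POLD2 and TIMELESS were called in no line.

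To show what lies in front of the genes that moved most, their promoters are printed here from RefSeq (GRCh38.p14, 250 bases before to 50 bases after the start, 5′ to 3′ on the gene's strand). Of the 53 genes, 46 had an entry. MCM4, MCM5, GINS4, POLD3, RPA2, RPA3 and DNA2 had none. The E2F site was searched as TTTCCCGC, TTTCGCGC, TTTGCCGC and TTTGGCGC on both strands, and matches are in capitals. The start is the one used in that table. The 4 genes below fell by more than 2-fold on average, namely POLA1 (chrX:24693668-24693967, plus strand), POLA2 (chr11:65261712-65262011, plus strand), PRIM2 (chr6:57314555-57314854, plus strand) and POLE (chr12:132687293-132687592, minus strand).
POLA1: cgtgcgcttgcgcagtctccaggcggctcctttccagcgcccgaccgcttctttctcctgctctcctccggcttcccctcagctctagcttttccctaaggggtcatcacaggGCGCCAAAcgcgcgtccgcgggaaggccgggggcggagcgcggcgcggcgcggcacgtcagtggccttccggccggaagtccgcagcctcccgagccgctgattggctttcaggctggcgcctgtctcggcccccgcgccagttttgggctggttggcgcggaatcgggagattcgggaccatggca
POLA2: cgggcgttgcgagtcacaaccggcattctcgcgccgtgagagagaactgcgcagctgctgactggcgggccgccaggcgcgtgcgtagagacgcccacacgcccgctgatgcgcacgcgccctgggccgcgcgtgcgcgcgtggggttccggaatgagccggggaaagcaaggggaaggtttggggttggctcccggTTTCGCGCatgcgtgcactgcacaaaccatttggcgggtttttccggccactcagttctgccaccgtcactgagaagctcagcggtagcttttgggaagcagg
PRIM2: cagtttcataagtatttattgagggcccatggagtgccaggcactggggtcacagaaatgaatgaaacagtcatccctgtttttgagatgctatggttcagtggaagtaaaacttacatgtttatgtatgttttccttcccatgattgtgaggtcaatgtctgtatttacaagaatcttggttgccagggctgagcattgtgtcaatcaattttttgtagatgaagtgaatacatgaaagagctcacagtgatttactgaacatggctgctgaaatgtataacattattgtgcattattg
POLE: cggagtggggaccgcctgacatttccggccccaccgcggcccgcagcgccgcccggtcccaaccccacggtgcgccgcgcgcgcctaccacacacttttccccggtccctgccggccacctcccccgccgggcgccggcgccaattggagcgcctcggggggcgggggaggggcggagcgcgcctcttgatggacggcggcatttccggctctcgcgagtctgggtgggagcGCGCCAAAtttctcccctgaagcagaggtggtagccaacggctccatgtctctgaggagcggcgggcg

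The next 2 promoters belong to MCM2 (chr3:127598161-127598460, plus strand) and MCM3 (chr6:52284693-52284992, minus strand), subunits of the same ring that moved in opposite directions in every line.
MCM2: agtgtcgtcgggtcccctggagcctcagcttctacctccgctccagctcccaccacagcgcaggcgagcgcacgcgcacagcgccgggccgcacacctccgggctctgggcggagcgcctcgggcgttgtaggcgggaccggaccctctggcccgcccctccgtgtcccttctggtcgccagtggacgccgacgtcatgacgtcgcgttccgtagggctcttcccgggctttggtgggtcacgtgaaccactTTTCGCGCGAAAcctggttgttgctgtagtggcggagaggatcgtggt
MCM3: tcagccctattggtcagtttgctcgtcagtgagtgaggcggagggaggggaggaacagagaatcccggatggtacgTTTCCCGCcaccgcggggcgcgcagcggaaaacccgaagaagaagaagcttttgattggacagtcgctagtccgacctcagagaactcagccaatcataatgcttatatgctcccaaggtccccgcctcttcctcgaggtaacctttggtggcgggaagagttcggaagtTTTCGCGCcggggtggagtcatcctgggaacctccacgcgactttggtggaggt

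POLA1, POLA2 and POLE held 1 match each, and PRIM2, which had the largest mean fall, held none. Only 1 start per gene was searched. MCM2 and MCM3 held 2 matches each, and those of MCM2 overlap, being the same bases read on the 2 strands in part. Over the 46 promoters, 20 (43.5%) held a match, beside 3.33% of all 27305 promoters of this length. A match was in 12 of 26 promoters of genes that fell on average and in 4 of 6 of genes that rose. It was in 4 of 14 promoters of genes that did not pass. Whether a match goes with the direction of change was not tested. The median mean log2 fold change was −0.25 with a match and −0.18 without. CCAAT, the letters of the NF-Y site, was in 25 promoters (54.3%) on either strand, beside 35.7% of all promoters. These are descriptions of letters in a window, and no match says only that the letters are not in it.

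The origin recognition complex, which marks origins, did not move as a unit. On average 2 of its 6 genes fell (ORC1 and ORC2), 2 rose (ORC4 and ORC6) and 2 did not pass. ORC6, the smallest subunit (chromosome 16 from 46723555 to 46732306 of GRCh37), showed the largest rise of the 53 genes. In MDA-MB-468 the level of ORC6 was 46.4 and 45.8 CPM in the NS libraries and 94.5 and 114 CPM in the KD libraries, in SUM149PT 40.0 and 40.1 and then 65.5 and 66.4 CPM, and in HCC38 80.6 and 68.9 and then 89.0 and 94.3 CPM. All KD libraries lay above both NS libraries of their line. The log2 fold change was 1.18 (SE 0.106, adjusted p = 2.88e-07), 0.72 (SE 0.107, adjusted p = 0.000103) and 0.29 (SE 0.104, adjusted p = 0.0488). The call in HCC38 was lost without KD replicate 1, NS replicate 2 or KD replicate 2 of that line, where the log2 fold change ran down to 0.18. ORC4 rose in MDA-MB-468 (0.51) and SUM149PT (0.55) and measured −0.26 in HCC38, where it did not pass, and the call in MDA-MB-468 was lost without NS replicate 2. ORC1, the subunit whose level changes through the cell cycle, fell in SUM149PT (−0.43, lost without KD replicate 2) and HCC38 (−0.31, lost without NS replicate 2 or KD replicate 2). ORC3 passed only in HCC38 (−0.58, lost without NS replicate 1), with 0.01 in MDA-MB-468 and 0.15 in SUM149PT, and its response differed between lines (adjusted p = 0.0529).

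CDC6 and CDT1 load the helicase, and geminin (GMNN) binds CDT1 to prevent loading again after S phase has begun. None of the 3 fell on average and CDC6 rose. The NS libraries held 90.6 and 84.1 CPM of CDC6 in MDA-MB-468, 109.7 and 105 CPM in SUM149PT and 169.9 and 161 CPM in HCC38, and the KD libraries 113 and 131, 137 and 126, and 150.0 and 144 CPM in the same order of lines. Both KD libraries were higher than both NS libraries in MDA-MB-468 and SUM149PT, and lower in HCC38. The log2 fold changes were 0.48 (adjusted p = 0.000538), 0.29 (adjusted p = 0.0251) and −0.17 (adjusted p = 0.192), and the 3 responses differed (adjusted p = 0.00575). The rise in SUM149PT was lost without KD replicate 1 or NS replicate 2. CDT1 passed only in SUM149PT, where it fell (−0.34), with 0.01 in MDA-MB-468 and 0.15 in HCC38 (adjusted p of the difference = 0.0155). GMNN fell in HCC38 (−0.44, lost without NS replicate 1) and did not pass in MDA-MB-468 (0.10) or SUM149PT (−0.03).

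The 6 genes of the MCM ring, whose products form a hexamer with 1 copy of each, changed unequally. On average MCM3, MCM5 and MCM6 fell, MCM2 rose, and MCM4 and MCM7 did not pass. MCM3 (chromosome 6 from 52128812 to 52149679 of GRCh37) carried the largest fall. Counts of MCM3 came to 395 and 410.2 CPM (NS) and 165 and 159.8 CPM (KD) in MDA-MB-468, 405 and 388 CPM (NS) and 298 and 284 CPM (KD) in SUM149PT, and 232 and 227 CPM (NS) and 176 and 170.1 CPM (KD) in HCC38. KD and NS libraries did not overlap in any line, and the fall was deepest in MDA-MB-468. The log2 fold change was −1.31 (SE 0.0783, adjusted p = 4.53e-09), −0.45 (SE 0.0771, adjusted p = 0.000393) and −0.41 (SE 0.0772, adjusted p = 0.00104). Of the 53 genes, MCM3 had the smallest adjusted p for a difference between lines (7.08e-05).

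MCM2 moved the other way. MCM2 measured 125 and 129 CPM in the NS libraries of MDA-MB-468 against 179 and 183 CPM in KD, 224 and 209 against 254 and 245 CPM in SUM149PT, and 352 and 370.1 against 483 and 456 CPM in HCC38. Each KD library was above both NS libraries of its line. Its log2 fold changes were 0.51 (adjusted p = 7.41e-05), 0.20 (adjusted p = 0.0636) and 0.38 (adjusted p = 0.00203). The call in SUM149PT was lost in 9 of 19 alternatives, among them those without SUM149PT NS replicate 1 or KD replicate 1. Per kb of transcript, MCM3 stood at 3.55 and 3.56 times MCM2 in the NS libraries of MDA-MB-468 and at 1.03 and 0.98 times in the KD libraries. In SUM149PT the ratio was 2.03 and 2.07 against 1.31 and 1.30, and in HCC38 0.737 and 0.686 against 0.408 and 0.417. The ratio was lower in both KD libraries of each line, and such a ratio shows unequal change rather than which of the 2 genes moved.

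MCM4 was called in opposite directions in 2 lines. In MDA-MB-468 the level of MCM4 was 183 and 197 CPM in the NS libraries and 233 and 249.7 CPM in the KD libraries, in SUM149PT 437 and 393 and then 458 and 399.7 CPM, and in HCC38 384 and 378 and then 336 and 298 CPM. It rose in MDA-MB-468 (0.34, adjusted p = 0.00796) and fell in HCC38 (−0.26, adjusted p = 0.0511), with an adjusted p of 0.0122 for the difference between lines. The rise was lost without MDA-MB-468 NS replicate 1, and the fall without HCC38 NS replicate 1, NS replicate 2 or KD replicate 2. MCM5 fell in MDA-MB-468 (−0.37) and SUM149PT (−0.29, lost without KD replicate 2). MCM6 fell in MDA-MB-468 (−0.21, lost in 12 of 19 alternatives) and HCC38 (−0.50). MCM7 rose in MDA-MB-468 (0.21, lost without KD replicate 1 or NS replicate 2) and did not pass in the other lines, where it measured −0.16 and −0.01. MCM7 shares exon sequence with MIR93 on its own strand and with AP4M1 on the other, and how the counting treated strand was not stated.

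**Figure D2:**
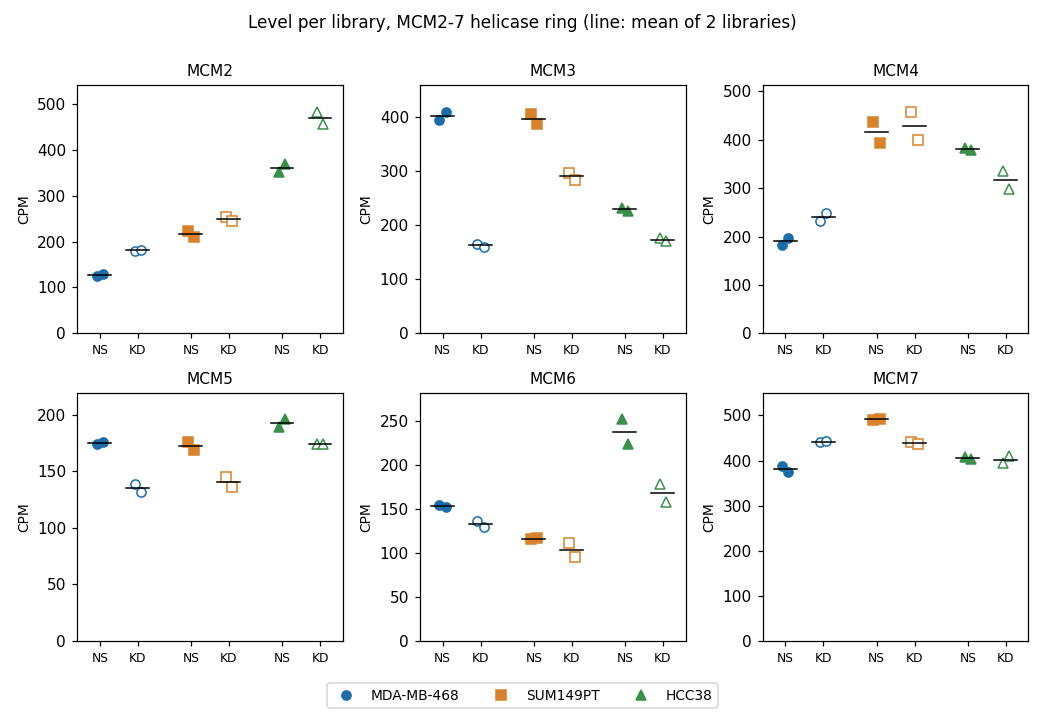
TMM-scaled level in CPM (vertical axes, from 0) of MCM2 to MCM7 in each library of the 3 lines, NS filled and KD open, with a line at the mean of the 2 libraries. MCM3 fell from 395 and 410.2 to 165 and 159.8 CPM in MDA-MB-468, while MCM2 was higher in KD in each line.

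CDC7 and its partner DBF4 form the kinase that acts on the loaded ring, and MCM10 and TOPBP1 help to activate it. MCM10 fell in all 3 lines by similar amounts. The NS libraries held 34.7 and 38.5 CPM of MCM10 in MDA-MB-468, 86.0 and 78.5 CPM in SUM149PT and 168 and 170.2 CPM in HCC38, and the KD libraries 31.3 and 29.6, 72.3 and 61.7, and 145 and 128 CPM in the same order of lines. KD libraries lay below NS libraries in each line. The log2 fold changes were −0.26 (adjusted p = 0.0546), −0.30 (adjusted p = 0.0398) and −0.31 (adjusted p = 0.0342). Each of these 3 calls was lost without at least 2 of the libraries of its line, KD replicate 2 among them in each line, while the mean of −0.29 (SE 0.0597, adjusted p = 0.000762) passed under every alternative. TOPBP1 rose in MDA-MB-468 (0.53) and SUM149PT (0.38), where the call was lost without KD replicate 1 or NS replicate 2, and measured −0.07 in HCC38.

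Genes called in opposite directions in 2 lines numbered 5 of 53, against 3.72% of all genes, and DBF4 was among them. Counts of DBF4 came to 15.9 and 15.3 CPM (NS) and 17.8 and 19.1 CPM (KD) in MDA-MB-468, 22.5 and 24.9 CPM (NS) and 30.3 and 28.2 CPM (KD) in SUM149PT, and 28.3 and 21.1 CPM (NS) and 18.5 and 18.2 CPM (KD) in HCC38. In HCC38 both KD libraries lay below both NS libraries, and in SUM149PT both lay above. It rose in SUM149PT (0.31, adjusted p = 0.0922) and fell in HCC38 (−0.43, adjusted p = 0.0233). The rise was lost in 14 of 19 alternatives, and the fall without HCC38 NS replicate 1 or KD replicate 2. CDC7 fell in HCC38 (−0.48), where its NS level was 133 and 119 CPM beside 42.9 and 37.1 CPM in MDA-MB-468, and did not pass in the other lines.

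CDC45 and the 4 GINS genes complete the active helicase, and here 4 of 5 genes fell on average. CDC45 measured 81.3 and 85.9 CPM in the NS libraries of MDA-MB-468 against 44.3 and 39.2 CPM in KD, 58.2 and 62.1 against 37.4 and 38.9 CPM in SUM149PT, and 117 and 106 against 76.0 and 81.3 CPM in HCC38. In all 3 lines both KD libraries were lower than both NS libraries. CDC45 had log2 fold changes of −1.002 (SE 0.0970, adjusted p = 6.12e-07), −0.66 (SE 0.0973, adjusted p = 0.000106) and −0.50 (SE 0.0953, adjusted p = 0.00101). GINS2 followed it, at −0.67, −0.63 and −0.52, with no difference between lines passing the test (adjusted p = 0.722). GINS1 fell in MDA-MB-468 (−0.51) and SUM149PT (−0.50), and GINS4 in MDA-MB-468 (−0.64) and HCC38 (−0.45, lost without KD replicate 2). GINS3 was the exception within the tetramer. It rose in MDA-MB-468 (0.77, adjusted p = 1.76e-05) and SUM149PT (0.32, adjusted p = 0.0249), the latter lost without KD replicate 1 or NS replicate 2, and measured 0.14 in HCC38.

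DNA polymerase alpha-primase begins new strands at the fork: PRIM1 makes the RNA primer with PRIM2, and POLA1 extends it with the help of POLA2. Its 4 genes summed to 212 and 196.6 CPM in the NS libraries and 63.8 and 57.7 CPM in the KD libraries of MDA-MB-468. The sums were 198.5 and 204 against 122 and 102.8 CPM in SUM149PT, and 197.5 and 184 against 104 and 102.2 CPM in HCC38. In no other complex of 3 or more of these genes was every gene called as fallen in every line. As sums, polymerase epsilon and polymerase delta were also lower in both KD libraries of every line. So were the MCM ring, CDC45 with GINS, fragment maturation and nucleotide supply.

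PRIM2, the large primase subunit (chromosome 6 from 57179603 to 57513376 of GRCh37), had the largest fall of the 53 genes. In MDA-MB-468 the level of PRIM2 was 28.6 and 24.5 CPM in the NS libraries and 4.69 and 4.54 CPM in the KD libraries, in SUM149PT 34.1 and 35.9 and then 12.9 and 11.1 CPM, and in HCC38 27.0 and 23.7 and then 10.2 and 11.8 CPM. The KD libraries lay far below the NS libraries in every line, and lowest in MDA-MB-468. KD left 17.4%, 34.4% and 43.3% of the NS level in the 3 lines. The log2 fold change was −2.52 (SE 0.142, adjusted p = 2.57e-09), −1.54 (SE 0.132, adjusted p = 5.80e-07) and −1.21 (SE 0.131, adjusted p = 6.49e-06), and it differed between lines (adjusted p = 0.000615). PRIM1, the catalytic primase subunit, fell less, at −1.04, −0.44 and −0.79, and its call in SUM149PT was lost without NS replicate 2 or KD replicate 2. Per kb, PRIM2 stood at 1.52 and 1.63 times PRIM1 in the NS libraries of MDA-MB-468 and at 0.527 and 0.602 times in KD. In SUM149PT the ratio was 1.23 and 1.07 in NS against 0.528 and 0.540 in KD. In HCC38 PRIM2 was below PRIM1 already in NS, at 0.564 and 0.629 times, against 0.427 and 0.463 times in KD. The exons of PRIM1 share sequence with NACA on the same strand.

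POLA1, the catalytic subunit (chromosome X from 24711990 to 25015103 of GRCh37), also fell in every line. The NS libraries held 64.2 and 61.2 CPM of POLA1 in MDA-MB-468, 39.6 and 38.4 CPM in SUM149PT and 37.6 and 36.8 CPM in HCC38, and the KD libraries 18.9 and 17.6, 20.9 and 14.9, and 15.4 and 13.8 CPM in the same order of lines. No KD library reached an NS library of its line. Log2 fold changes were −1.78 (SE 0.134, adjusted p = 4.13e-08), −1.12 (SE 0.133, adjusted p = 1.37e-05) and −1.35 (SE 0.134, adjusted p = 2.69e-06). POLA2 (chromosome 11 from 65029384 to 65073430 of GRCh37) started from nearly the same level in the 3 lines, and its NS levels did not differ between lines by the test (adjusted p = 0.311). Counts of POLA2 came to 103 and 98.2 CPM (NS) and 32.8 and 29.2 CPM (KD) in MDA-MB-468, 101 and 101 CPM (NS) and 67.5 and 59.5 CPM (KD) in SUM149PT, and 92.3 and 92.0 CPM (NS) and 58.3 and 55.0 CPM (KD) in HCC38. It fell most in MDA-MB-468, to 30.7% of NS, with 62.7% in SUM149PT and 61.5% in HCC38. These are log2 fold changes of −1.70 (SE 0.0974), −0.67 (SE 0.0945) and −0.70 (SE 0.0944), and the lines differed (adjusted p = 0.000129).

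POLE, the leading-strand polymerase (chromosome 12 from 133200339 to 133263962 of GRCh37), fell as deeply. POLE measured 149.8 and 173 CPM in the NS libraries of MDA-MB-468 against 40.3 and 35.4 CPM in KD, 164 and 143 against 54.4 and 48.6 CPM in SUM149PT, and 130.0 and 175 against 62.6 and 59.1 CPM in HCC38. The NS libraries of the 3 lines covered one common range and the KD libraries another, with a wide gap between them. Log2 fold changes were −2.09 (SE 0.137, adjusted p = 1.07e-08), −1.58 (SE 0.134, adjusted p = 5.72e-07) and −1.32 (SE 0.133, adjusted p = 3.08e-06). Its partner POLE2 fell in HCC38 (−0.67, adjusted p = 0.00430) and did not pass in MDA-MB-468 (−0.17) or SUM149PT (−0.20). Genes that fell by more than 2-fold on average numbered 4 of 53 (PRIM2, POLE, POLA1 and POLA2), against 5.43% of all genes, so that share is close to the background. Calls for these 4 genes held in every line under every alternative.

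**Figure D3:**
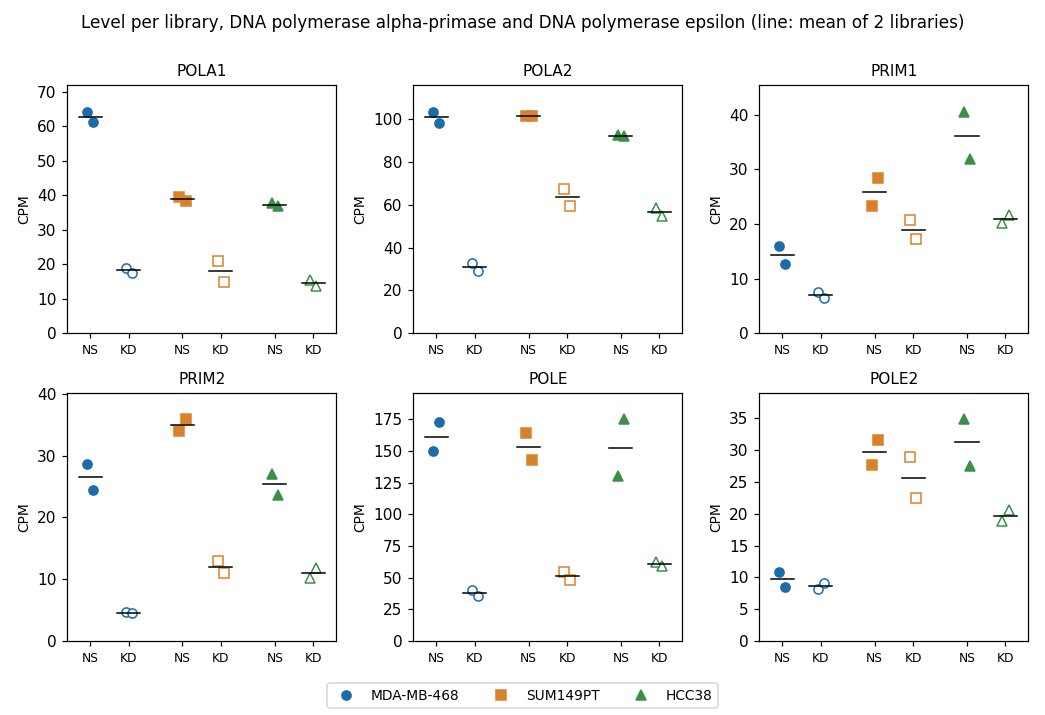
TMM-scaled level in CPM (vertical axes, from 0) of POLA1, POLA2, PRIM1, PRIM2, POLE and POLE2 in each library, NS filled and KD open, with a line at the mean of the 2 libraries. KD lies below NS in every line for POLA1, POLA2, PRIM1, PRIM2 and POLE, and the POLE2 libraries of MDA-MB-468 and SUM149PT overlap.

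Polymerase delta, the lagging-strand polymerase, fell more mildly. POLD1 encodes its catalytic subunit. In MDA-MB-468 the level of POLD1 was 134 and 137 CPM in the NS libraries and 101 and 92.8 CPM in the KD libraries, in SUM149PT 95.2 and 90.1 and then 64.2 and 65.8 CPM, and in HCC38 117 and 128 and then 106 and 101 CPM. KD libraries were below NS libraries in all 3 lines. The log2 fold changes were −0.49 (adjusted p = 0.000232), −0.51 (adjusted p = 0.000357) and −0.24 (adjusted p = 0.0516), and the last was lost in 6 of 19 alternatives, among them those without HCC38 NS replicate 2 or KD replicate 2. POLD3 fell in MDA-MB-468 (−0.41) and HCC38 (−0.30, lost without NS replicate 1 or KD replicate 2). POLD2 measured 0.09, −0.17 and −0.04, with a mean of −0.04 (95% interval −0.14 to 0.06). No response of the 3 genes differed between lines at an adjusted p under 0.1, and POLD1 shares exon sequence with ENSG00000142539.

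PCNA is the sliding clamp and RFC1 to RFC5 form the loader that closes it around DNA. All 6 genes fell on average, with mean log2 fold changes of −0.37 to −0.13, and in HCC38 5 of 6 fell. Summed over the 6 genes, HCC38 had 1183 and 1009 CPM in NS and 801 and 752 CPM in KD, while the libraries of MDA-MB-468 held 601 to 665 CPM in both groups. RFC2 fell in each of the 3 lines. The NS libraries held 69.1 and 65.8 CPM of RFC2 in MDA-MB-468, 95.7 and 94.8 CPM in SUM149PT and 126 and 111 CPM in HCC38, and the KD libraries 52.4 and 52.2, 79.3 and 69.2, and 88.5 and 94.3 CPM in the same order of lines. KD libraries were below NS libraries in each. Its log2 fold changes were −0.37, −0.36 and −0.38 (mean −0.37, SE 0.0554, adjusted p = 4.07e-05), and the call in SUM149PT was lost without KD replicate 2. PCNA fell in HCC38 (−0.56) and measured 0.03 in MDA-MB-468 and −0.09 in SUM149PT, and RFC3 did likewise with −0.55, −0.11 and 0.05. RFC5 went the other way round, falling in MDA-MB-468 (−0.69) and SUM149PT (−0.30, lost without NS replicate 1, NS replicate 2 or KD replicate 2) and measuring −0.04 in HCC38.

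RFC1, the large loader subunit, was called in opposite directions. Counts of RFC1 came to 75.9 and 78.4 CPM (NS) and 71.5 and 72.3 CPM (KD) in MDA-MB-468, 83.1 and 74.4 CPM (NS) and 98.9 and 91.5 CPM (KD) in SUM149PT, and 149 and 140.3 CPM (NS) and 106 and 90.6 CPM (KD) in HCC38. In HCC38 both KD libraries lay below both NS libraries, and in SUM149PT both lay above. It rose in SUM149PT (0.27, adjusted p = 0.0446) and fell in HCC38 (−0.56, adjusted p = 0.000509), with an adjusted p of 0.00197 for the difference. The rise was lost without SUM149PT KD replicate 1 or NS replicate 2. The mean fall of RFC1 (−0.13, adjusted p = 0.0717) was lost in 11 of 18 alternatives, so the count of 6 rests in part on a call near the threshold.

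RPA coats the single strands that unwinding exposes. RPA3, its small subunit, had the largest mean change of the 3 genes, at −0.35 (SE 0.0991, adjusted p = 0.00788). RPA3 measured 46.8 and 36.5 CPM in the NS libraries of MDA-MB-468 against 30.8 and 37.7 CPM in KD, 27.9 and 38.0 against 21.0 and 22.9 CPM in SUM149PT, and 26.1 and 19.6 against 18.9 and 21.3 CPM in HCC38. The groups overlapped in MDA-MB-468 and HCC38, and in SUM149PT both KD libraries were lower. The fall passed in SUM149PT (−0.58), where it was lost without KD replicate 1 or NS replicate 2. RPA1 fell in MDA-MB-468 (−0.26, lost without NS replicate 2 or KD replicate 2) and HCC38 (−0.41), while RPA2 rose in MDA-MB-468 (0.38) and SUM149PT (0.26, lost without NS replicate 1, KD replicate 1 or NS replicate 2).

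On the lagging strand FEN1 and DNA2 cut the flap of each Okazaki fragment and LIG1 seals the nick. LIG1 (chromosome 19 from 48618702 to 48673860 of GRCh37) fell in every line. In MDA-MB-468 the level of LIG1 was 144 and 156 CPM in the NS libraries and 66.4 and 61.1 CPM in the KD libraries, in SUM149PT 87.7 and 85.6 and then 45.3 and 44.2 CPM, and in HCC38 89.7 and 106 and then 65.1 and 68.2 CPM. KD and NS libraries did not overlap. Log2 fold changes were −1.23 (SE 0.0976, adjusted p = 7.34e-08), −0.95 (SE 0.0981, adjusted p = 3.40e-06) and −0.55 (SE 0.0966, adjusted p = 0.000518), and the lines differed (adjusted p = 0.00642). DNA2 fell in MDA-MB-468 (−0.41, lost without NS replicate 2 or KD replicate 2) and in HCC38 (−0.82), where it had its deepest fall.

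FEN1 had calls in opposite directions. The NS libraries held 175 and 184 CPM of FEN1 in MDA-MB-468, 137 and 139 CPM in SUM149PT and 214 and 186 CPM in HCC38, and the KD libraries 216 and 235, 159 and 152, and 169 and 176 CPM in the same order of lines. KD libraries were above NS libraries in MDA-MB-468 and SUM149PT, and below them in HCC38. It rose in MDA-MB-468 (0.33, adjusted p = 0.00687) and fell in HCC38 (−0.21, adjusted p = 0.0918), but the fall was lost in 18 of 19 alternatives. FEN1 shares exon sequence with FADS2, and a place on chromosome 1 matches its whole transcript at 95.1% identity. DBF4, ORC3, PCNA and RRM2 also have a place elsewhere in the genome with at least 90% identity over at least 50% of the transcript, so reads of these 5 genes could have been split or dropped in counting. POLD2 lies just under that limit, with a place on chromosome 5 at 89.98% identity over 85.5% of the transcript.

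Fork protection was the step with no call on average. CLSPN (claspin), TIMELESS, TIPIN and WDHD1 hold helicase and polymerases together and signal stalled forks, and their mean log2 fold changes ran from −0.17 to 0.03. Within lines, CLSPN fell (−0.34) and TIPIN rose (0.31) in MDA-MB-468, each lost without NS replicate 2 or KD replicate 2. WDHD1 fell in HCC38 (−0.48, lost without KD replicate 2). Counts of WDHD1 came to 20.7 and 22.1 CPM (NS) and 22.3 and 21.2 CPM (KD) in MDA-MB-468, 84.9 and 75.8 CPM (NS) and 88.2 and 73.8 CPM (KD) in SUM149PT, and 113 and 104 CPM (NS) and 86.9 and 67.5 CPM (KD) in HCC38. Its NS level differed between lines (adjusted p = 4.76e-10) and was lowest in MDA-MB-468.

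Nucleotide supply fell in 3 of 4 genes in every line. TYMS makes thymidylate, TK1 salvages thymidine, and RRM1 and RRM2 are the subunits of ribonucleotide reductase. For TYMS (chromosome 18 from 657653 to 673578 of GRCh37) the KD libraries were below the NS libraries throughout. TYMS measured 156 and 148 CPM in the NS libraries of MDA-MB-468 against 78.6 and 75.1 CPM in KD, 84.4 and 78.9 against 49.6 and 48.2 CPM in SUM149PT, and 142 and 115 against 87.6 and 88.8 CPM in HCC38. Log2 fold changes were −0.98 (SE 0.101, adjusted p = 1.13e-06), −0.74 (SE 0.102, adjusted p = 5.39e-05) and −0.54 (SE 0.1001, adjusted p = 0.000785). TYMS overlaps ENOSF1 and TYMSOS on the other strand.

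TK1 stood far higher in HCC38 than in the other lines and fell in all 3. In MDA-MB-468 the level of TK1 was 173 and 173 CPM in the NS libraries and 89.7 and 82.7 CPM in the KD libraries, in SUM149PT 187 and 207 and then 138 and 131 CPM, and in HCC38 494 and 449 and then 301 and 323 CPM. Even so, the KD libraries of HCC38 remained above every NS library of the other lines. Its log2 fold changes were −1.01 (adjusted p = 2.46e-07), −0.55 (adjusted p = 0.000221) and −0.60 (adjusted p = 0.000118).

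The 2 reductase subunits parted. The NS libraries held 315 and 312 CPM of RRM2 in MDA-MB-468, 555 and 559 CPM in SUM149PT and 166 and 154 CPM in HCC38, and the KD libraries 173 and 184, 417 and 376, and 133 and 128 CPM in the same order of lines. RRM2, the subunit that is made anew in S phase, fell in each of the lines (log2 fold changes −0.81, −0.49 and −0.29, adjusted p = 1.09e-06, 0.000313 and 0.0170), and the HCC38 call was lost without NS replicate 1 or KD replicate 2. Counts of RRM1 came to 121 and 118 CPM (NS) and 137 and 143 CPM (KD) in MDA-MB-468, 150.2 and 144 CPM (NS) and 157 and 132 CPM (KD) in SUM149PT, and 189 and 168 CPM (NS) and 143 and 122 CPM (KD) in HCC38. RRM1 rose in MDA-MB-468 (0.23, adjusted p = 0.0860), a call lost in 9 of 19 alternatives, and fell in HCC38 (−0.43, adjusted p = 0.00615). The response of both genes differed between lines (adjusted p = 0.0121 for RRM2 and 0.0121 for RRM1).

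The response differed between lines for 34 of the 53 genes, against 32.4% of all genes. By complex these were 4 of 6 origin recognition genes, 3 of 3 licensing genes, 3 of 6 MCM genes, 3 of 4 firing factors, 2 of 5 CDC45 and GINS genes, 3 of 4 alpha-primase genes, 1 of 2 epsilon genes, 0 of 3 delta genes, 4 of 6 clamp genes, 2 of 3 RPA genes, 3 of 3 fragment maturation genes, 2 of 4 fork protection genes and 4 of 4 nucleotide genes. Among the genes that fell in all lines, 12 of 15 were lowest in MDA-MB-468, PRIM2 and MCM3 among them. A further 7 genes (ORC3, GMNN, CDC7, POLE2, PCNA, RFC3 and WDHD1) fell in HCC38 and passed in no other line, as did 3.42% of all genes. Of the 7 genes that rose on average, 6 had their lowest log2 fold change in HCC38, MCM2 being the exception.

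Without knock-down the lines carried unequal amounts of these RNAs, as they did for most genes tested. NS levels differed between lines for 50 of the 53 genes, against 85.9% of all genes, and the exceptions were MCM5, POLA2 and POLE. HCC38 had the highest mean NS level for 28 genes, SUM149PT for 13 and MDA-MB-468 for 12, a ranking not counted over all genes. Against HCC38, 28 genes were lower and 14 higher in MDA-MB-468, where 37.7% and 33.7% of all genes were. In SUM149PT 27 were lower and 14 higher than in HCC38, where 38.0% and 31.6% of all genes were. Per kb of transcript, PCNA was the highest of the 53 in HCC38, at 436 CPM per kb, with 285 in MDA-MB-468 and 195 in SUM149PT. The lowest per kb were ORC4 in HCC38 (2.54 CPM per kb), WDHD1 in MDA-MB-468 (3.55) and DBF4 in MDA-MB-468 (4.27).

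The 5 genes with the smallest adjusted p for an NS difference were RRM2 (6.23e-11), MCM10 (8.35e-11), MCM2 (2.94e-10), TK1 (3.64e-10) and WDHD1 (4.76e-10). MCM10, MCM2 and WDHD1 were lowest in MDA-MB-468 and highest in HCC38. RRM2 ran in another order, with 171 CPM per kb in SUM149PT, 96.2 in MDA-MB-468 and 49.0 in HCC38. Of the catalytic polymerase genes, POLE stood at 20.6, 19.6 and 19.5 CPM per kb in MDA-MB-468, SUM149PT and HCC38, where its adjusted p was 0.811, while POLA1 (11.4, 7.11 and 6.78 CPM per kb, adjusted p = 6.50e-05) and POLD1 (39.5, 27.0 and 35.5 CPM per kb, adjusted p = 8.13e-05) differed between lines.

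**Figure D4:**
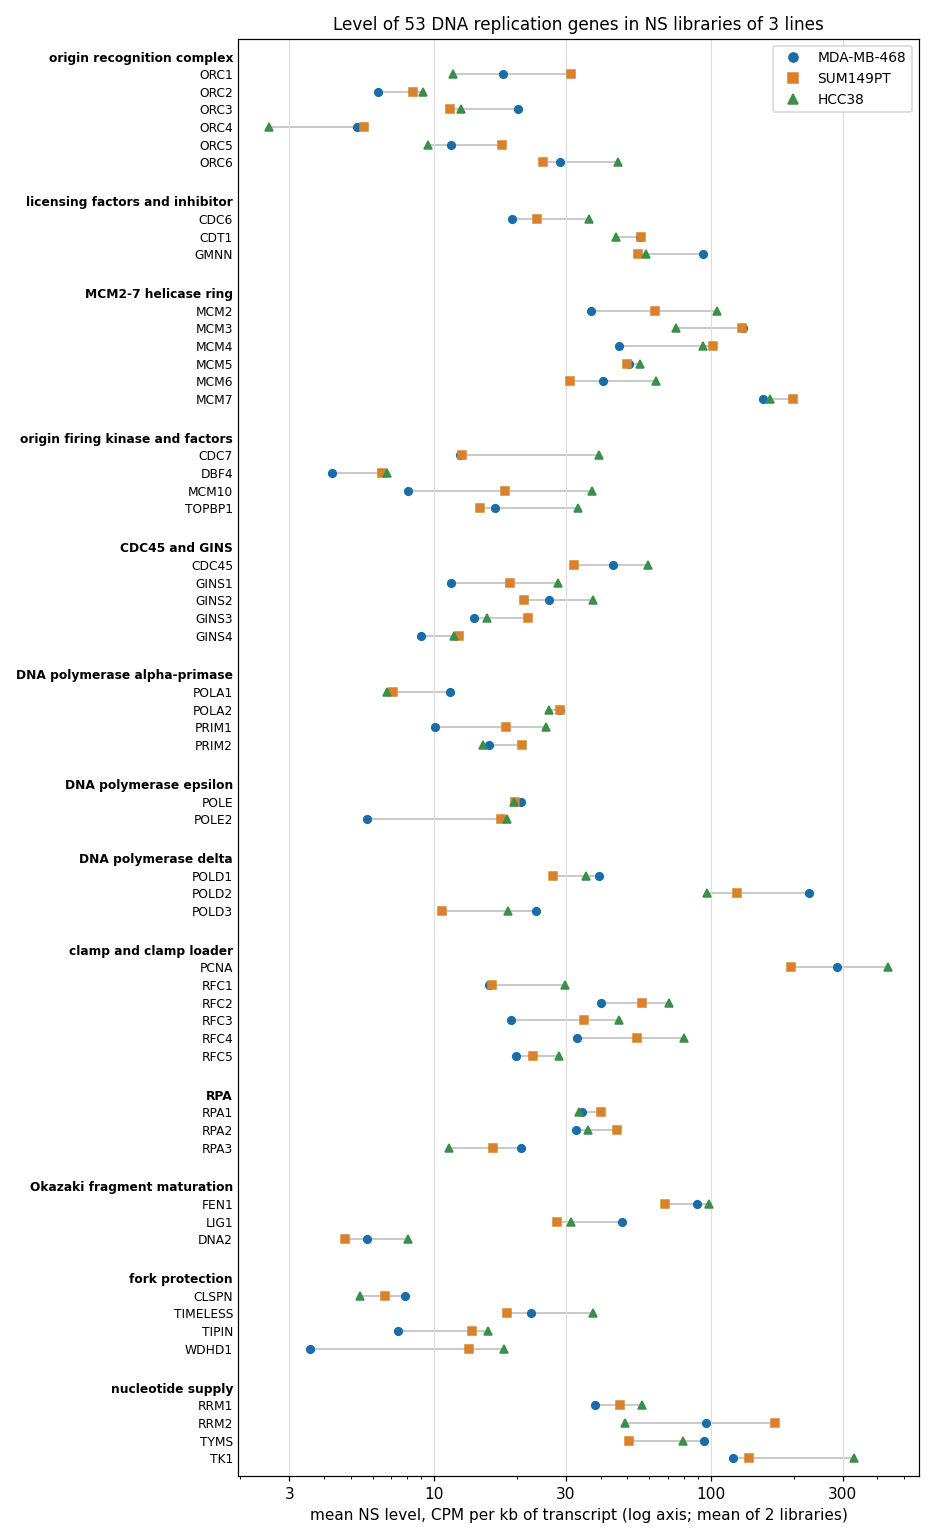
Mean level of each of the 53 genes in the 2 NS libraries of MDA-MB-468 (circles), SUM149PT (squares) and HCC38 (triangles), in CPM per kb of transcript on a log axis, with a grey line from the lowest to the highest line. PCNA, TK1, MCM7 and POLD2 lie toward the right, ORC4, DBF4 and DNA2 toward the left, and the symbols of POLE and POLA2 nearly coincide.

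Gene length moved with the response over all genes, and its part in the falls of the polymerase genes was not tested. The 4 genes that fell by more than 2-fold on average have a median span of 183369 bp in the annotation. That of the 53 genes is 36818 bp and that of all genes tested 21770 bp. The 4 span 333774 bp (PRIM2), 303114 bp (POLA1), 63624 bp (POLE) and 44047 bp (POLA2). Of the 20 members that span 50000 bp or more, 13 fell and 3 rose on average, and of the 33 shorter members 18 fell and 4 rose. Over all genes 41.2% of those at or above that length fell, and 20.5% of those below it. The median mean log2 fold change was −0.21 for long and −0.27 for short members, beside −0.15 and 0.12 over all genes. Spearman's rho between span and mean log2 fold change was −0.15 over the 53 members and −0.23 over 20686 genes, across genes that share the same libraries. Of the genes that fell in every line, POLA1, PRIM2, POLE, LIG1 and RRM2 span 50000 bp or more. The others, MCM3, MCM10, CDC45, GINS2, POLA2, PRIM1, POLD1, RFC2, TYMS and TK1, span less.

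The E2F family and its DP partners, which bind many of these promoters, fell in 6 of 10 genes on average and rose in 2, where 26.5% and 28.4% of all genes did. The lines differed in this: 4 fell and 4 rose in MDA-MB-468, 5 fell and 1 rose in SUM149PT, and 3 fell and none rose in HCC38. TFDP1, the main DP partner, fell with log2 fold changes of −2.08, −1.47 and −0.60 (adjusted p = 2.71e-10, 2.41e-08 and 0.000106). TFDP2 fell in MDA-MB-468 (−0.95) and HCC38 (−0.42). E2F1 fell in MDA-MB-468 (−0.58) and SUM149PT (−0.36) and measured −0.01 in HCC38. E2F3 fell in HCC38 (−0.62). The 2 that rose on average were E2F6 (0.29) and E2F7 (0.23), both of which repress transcription, and E2F8, another repressor, rose in MDA-MB-468 (0.39) and fell in SUM149PT (−0.37). Whether the level of any of these factors bears on the replication genes was not tested.

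Among 25 further replication factors, the mean response was a fall in 13 and a rise in 6, against 26.5% and 28.4% of all genes, so the rises are near the background. The 4 with the smallest adjusted p were MCMBP, RECQL4, POLE3 and RNASEH2A. MCMBP, which binds the MCM ring, fell in every line (−0.90, −0.58 and −1.16), and RECQL4, a helicase of origin firing, fell too (−0.84, −0.94 and −0.41). RNASEH2A, which removes RNA from DNA, had a mean of −0.55. POLE3, a histone-fold subunit of polymerase epsilon, rose (0.77, 0.69 and 0.16, the last not passing), so within that enzyme POLE fell and POLE3 rose in MDA-MB-468 and SUM149PT.

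Of 12 further genes of nucleotide supply, the mean response was a fall in 8 and a rise in 3, where 26.5% and 28.4% of all genes did, again with the rises near the background. The 4 with the smallest adjusted p were SHMT1 (mean −0.82) and SHMT2 (0.39), the cytosolic and mitochondrial serine hydroxymethyltransferases, RRM2B (0.55), the p53-inducible reductase subunit, and DTYMK (−0.35), thymidylate kinase. RRM2B thus rose on average where RRM2 fell. Of 8 matched genes of chromatin assembly behind the fork, 6 fell and 1 rose on average, against 26.5% and 28.4% of all genes. The falls were led by DNMT1 (−0.64), the maintenance DNA methyltransferase, CHAF1A (−0.46), HELLS (−0.55) and CHAF1B (−0.30).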

How the data were processed

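Total RNA of 12 libraries was sequenced on a strand-specific protocol, and the counts are as the authors deposited them, raw and whole, 1 per Ensembl gene, made with HTSeq 0.6.0 on GRCh37. The paper names STAR as aligner and the submitters' notes name TopHat2 2.0.13, so the aligner is unclear, and the annotation release and counting strand are not given in the sources used here. Lines naming no gene held 40.8% to 53.7% of counts and were left out.

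In R 4.3.3, edgeR 4.0.16 kept 21325 genes (filterByExpr, minimum count 10, minimum total 15), scaled libraries by TMM and fitted 6 group means by quasi-likelihood (6 residual degrees of freedom). Adjusted p-values are Benjamini-Hochberg over all genes tested, and rose or fell means an adjusted p under 0.1. Standard errors are of the log2 fold change. DESeq2 1.42.0, other scalings, filters and left-out libraries were alternatives, and the pipeline was tested on simulated counts. Positions and overlaps come from GENCODE lifted to GRCh37, promoters from RefSeq on GRCh38.p14, and similar places in the genome from minimap2.

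The members and lists were chosen with earlier results of these data known. Values per library are given for the member of each complex with the largest mean change that passed, members changed over 2-fold, those called in opposite directions, and the 5 smallest adjusted p-values for a difference in response or in NS level.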

Additional observations from a re-analysis of the deposited data

Results flagged for a closer look

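Each gene in the following is one whose response to knock-down was not the same in the 3 lines by edgeR's F test of the difference, with the adjusted p in brackets. The sizes behind them stand with each complex.

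Of the genes that fell in every line, the fall was deepest in MDA-MB-468 for MCM3 (7.08e-05), POLA2 (0.000129), PRIM2 (0.000615), LIG1 (0.00642), RRM2 (0.0121), POLE (0.0186), TK1 (0.0240), CDC45 (0.0324), POLA1 (0.0387) and TYMS (0.0798). RFC5 (0.00953) was also lowest in MDA-MB-468, and DNA2 (0.0172) in HCC38.

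HCC38 had the lowest value, with a fall that passed there, for RFC1 (0.00197), RFC3 (0.0118), CDC7 (0.0118), RRM1 (0.0121), MCM4 (0.0122), FEN1 (0.0137), DBF4 (0.0145), PCNA (0.0262), GMNN (0.0470), ORC3 (0.0529), WDHD1 (0.0603) and RPA1 (0.0777). Genes that rose in MDA-MB-468 and were lowest in HCC38 without passing there were CDC6 (0.00575), ORC4 (0.0116), GINS3 (0.0125), TOPBP1 (0.0215), TIPIN (0.0673), RPA2 (0.0691) and ORC5 (0.0719), and ORC6 (0.00209) rose in all 3 lines but least in HCC38. The lowest value was in SUM149PT for CDT1 (0.0155) and MCM7 (0.0382).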

How the results depend on the processing

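Over 261 recomputed counts and medians, 242 stayed within 1.5 times the count or within the replicate spread of the median, and no direction reversed. The median log2 fold change in HCC38 moved from −0.38 to −0.3187 with scaling by gene count totals alone and to −0.3247 with at least 10 counts in every library. Leaving out 1 library at a time, rises numbered 8 to 14 in MDA-MB-468, 2 to 9 in SUM149PT and 1 to 2 in HCC38, and medians ran from −0.2175 to −0.113, from −0.2239 to −0.05571, from −0.4432 to −0.3149 and, on average over lines, from −0.2835 to −0.1901. A lone library left in a group was assumed to vary like the others. Calls that held in every alternative were 26 of 38 in MDA-MB-468, 16 of 31 in SUM149PT, 22 of 37 in HCC38 and 36 of 38 on average, and the exceptions on average were ORC2 (lost without MDA-MB-468 NS replicate 1, adjusted p = 0.127, or SUM149PT KD replicate 2, adjusted p = 0.124) and RFC1. Same-numbered libraries did not deviate together in all lines (correlations of −0.02, 0.16 and −0.25). With 1 value per line this cannot tell whether same-numbered libraries were prepared together. The main fit did not treat them as pairs. With a replicate block 24, 22 and 33 genes fell in the 3 lines and 32 on average, and 27 in place of 34 differed between lines. At 32187835 counts or more per library, the interval of a fold change limits what can be called, not detection of these genes.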
